A study of Mus musculus with 8 samples.

Results

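Genes of fatty acid oxidation and ketone metabolism were examined in AtT20 cells, a mouse line of pituitary corticotroph tumor cells, with and without HX630, a synthetic agonist of the retinoid X receptors (RXRs). The group held 37 genes, chosen by symbol, and every array probe whose RefSeq accession belonged to 1 of them was taken. This gave 47 probes of the 39429 on the array, for 37 of the 19751 genes that the probes could be paired with. Of these genes, 20 encode mitochondrial enzymes and carriers of the oxidation pathway and 7 encode peroxisomal ones. Another 3 encode enzymes found in both organelles, and the remaining 7 act beside the pathway, among them an enzyme of ketone bodies, an uncoupling protein and a transcription factor. The 4 control samples were incubated without HX630 and the 4 HX630 samples with 10 μM of it, both for 48 hr in DMEM with 1% stripped serum. RNA of each sample was hybridized to its own single-color Agilent array. The labels do not say whether the 4 samples of a group came from separate cultures, so that p-values measure the spread between these samples, which may be technical.

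Fatty acids are burned in the mitochondrion after their acyl-CoA form has been carried across the inner membrane as acylcarnitine, the carnitine shuttle, of which carnitine palmitoyltransferase I is the controlled step. Inside, each turn of the spiral removes a piece of the chain through a dehydrogenase, a hydratase, a second dehydrogenase and a thiolase, and the electrons pass to the respiratory chain through the electron transfer flavoprotein. Peroxisomes run a similar spiral for very long and branched chains, with an oxidase at the first step. The liver turns the acetyl-CoA formed into ketone bodies, which other tissues oxidize. Many of these genes are known targets of the PPARs, nuclear receptors that bind DNA as a pair with an RXR, at direct repeats of the hexamer AGGTCA that are 1 base apart (DR1).

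Promoter sequences of the genes were therefore searched for this repeat. RefSeq promoters on GRCm38.p6, from 250 bases before to 50 bases after the start, were given for 32 of the 37 genes, with 35 promoters in all. No entry was given for Acaa2, Acad9, Cpt1b, Decr1 and Hsd17b4. With up to 2 mismatches allowed on either strand, the repeat (AGGTCA, any base, AGGTCA) was found in 4 of the 35 promoters (11.4%) and in 3.86% of all 32851 promoters in the table. These 4 matches are printed 5′ to 3′ along the strand of the gene, with 8 bases on each side and the match in capitals. Positions are counted from the start of the transcript.
Creb3l3, chr10:81092780-81092808, minus strand, match from -209 to -197: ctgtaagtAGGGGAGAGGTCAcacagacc
Echs1, chr7:140116484-140116512, minus strand, match from -83 to -71: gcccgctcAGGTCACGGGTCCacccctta
Etfa, chr9:55512300-55512328, minus strand, match from -77 to -65, read on the opposite strand: gcacacccTTACCTTTGCCCTactcccaa
Slc25a20, chr9:108662134-108662162, plus strand, match from 7 to 19: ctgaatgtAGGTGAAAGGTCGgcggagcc
Each of the 4 differed from the full repeat at 2 positions. Their genes moved in different directions, since Slc25a20 and Etfa rose with HX630 and Creb3l3 and Echs1 fell, with the values given further on and with the fall of Echs1 lost when the arrays were scaled on the spike-in probes (0.04 on the log2 scale). The single hexamer AGGTCA, without mismatch, lay in 6 of the 35 promoters (17.1%) against 16.3% of all promoters, and in Creb3l3 and Echs1 it is part of the repeat. The other 4 were those of Acadm, Acadvl, Cpt1a and Cpt1c.

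The stretch before the Cpt1a start is shown because this gene had the largest rise of the group. It covers the bases from -250 to -1, and the capitals mark the hexamer, on the opposite strand from -94 to -89.
Cpt1a, chr19:3323051-3323300, plus strand: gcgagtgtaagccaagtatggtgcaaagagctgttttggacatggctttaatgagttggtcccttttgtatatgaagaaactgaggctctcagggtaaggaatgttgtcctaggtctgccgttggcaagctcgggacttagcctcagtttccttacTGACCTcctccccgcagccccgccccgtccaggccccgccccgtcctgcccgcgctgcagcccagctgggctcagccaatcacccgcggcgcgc
The site of the estrogen-related receptors, TCAAGGTCA with up to 1 mismatch, which contains the same hexamer, was found in the promoters of Bdh1 and Ech1 (5.71% against 7.46% of all promoters). The cAMP response element, TGACGTCA with up to 1 mismatch, was found in those of Abcd3 and Acot2 (5.71% against 12.5%). These matches describe the letters in a window of 300 bases and are not measured binding.

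The 75th percentile of the processed signal ran from 1335 to 1863 in the control group and from 1803 to 1899 in the HX630 group, no spot was saturated, and an array had 69.7% to 73.5% of its probes well above background. Correlations over probes were 0.994 to 0.998 between arrays of one group and 0.978 to 0.984 between groups. The control arrays shared 1 slide and the HX630 arrays another, so that slide and treatment cannot be told apart. Of 8 corticotroph markers, 7 were well above background on all 8 arrays, among them Pomc, the ACTH precursor, and Tbx19, a corticotroph transcription factor, both of which were lower with HX630 (-0.45 and -0.37). Nr4a1, Pcsk1 and Pitx1 were also lower (-3.33, -2.06 and -0.32), while Crhr1 and Neurod1 were higher (1.11 and 0.72). The summed signal of the corticotroph markers, with the 75th percentile as 1, was 314 to 390 in controls and 219 to 229 with HX630. Most of this sum is the signal of Pomc (mean 8.03 in controls and 7.57 with HX630 on the log2 scale). The marker not detected was Avpr1b, a vasopressin receptor. Of 7 markers of other pituitary hormone cells, 2 were above background on all arrays, and the sum was 0.145 to 0.278 in controls and 0.182 to 0.214 with HX630. For 9 stromal and blood cell markers, of which 7 were above background on all arrays, the sum was 2.53 to 3.18 in controls and 1.17 to 1.36 with HX630, with Cd3e, a T cell receptor subunit, 1.44 lower and Dcn, a matrix proteoglycan, 1.04 higher on the log2 scale. Most of this sum is the signal of Cd3e (mean 1.30 in controls and -0.15 with HX630 on the log2 scale). At more than 1.5-fold 1 of the stromal and blood cell markers rose and 2 fell. Prl and Tshb, pituitary hormone genes, and Cdh5, an endothelial gene, were above background on 0 arrays. The part of these markers in the results was not tested.

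A signal is given here as log2 of the processed intensity minus the 75th percentile of its array, and a change as HX630 minus control on that scale. The limma test covered 35 of the 37 genes, those with a probe well above background on 4 or more of the 8 arrays. At an adjusted p below 0.01, 11 of the 35 rose and 13 fell, where 24% and 27.2% of all 15320 genes tested did. With a change of more than 1.5-fold as well, 4 rose (Cpt1a, Acadl, Ucp2 and Slc25a20) and 4 fell (Creb3l3, Cpt1b, Acaa2 and Acot2), where 8.38% of all genes rose and 11.2% fell. The share changed by more than 1.5-fold was thus 22.9% of the group and 19.5% of all genes, which is close, and the share changed at any size was 68.6% against 51.2%. Acadl is counted here although it entered the test through its HX630 arrays alone. With only probes above background on all 8 arrays, 3 genes rose by more than 1.5-fold. The median SE of the change was 0.048 in the group and 0.055 over all genes. The 4 HX630 arrays lay all above the controls for 11 genes and all below them for 15, where 28.6% and 32.8% of all genes did so (74.3% of the group in all, against 61.5%). Arrays report the RNA of the whole culture, so that a lower signal from fewer cells of a kind and from less RNA per cell cannot be told apart.

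The median change of the 35 genes was -0.06, and that of all genes -0.03. The direction of small changes depends on how the arrays are scaled. Scaled on the spike-in control probes, the median of all genes moved up by 0.22, 70.8% of the genes called at more than 1.5-fold were higher in place of 42.9%, and 16 members rose and 3 fell (Cpt1b, Acaa2 and Creb3l3). Scaled on the median of each array, 54.7% of the called genes were higher. Changes are therefore given relative to the 75th percentile, and a gene of the group that changes direction under another scaling is named as such. Genes outside the group were not followed singly under other scalings.

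**Figure D1:**
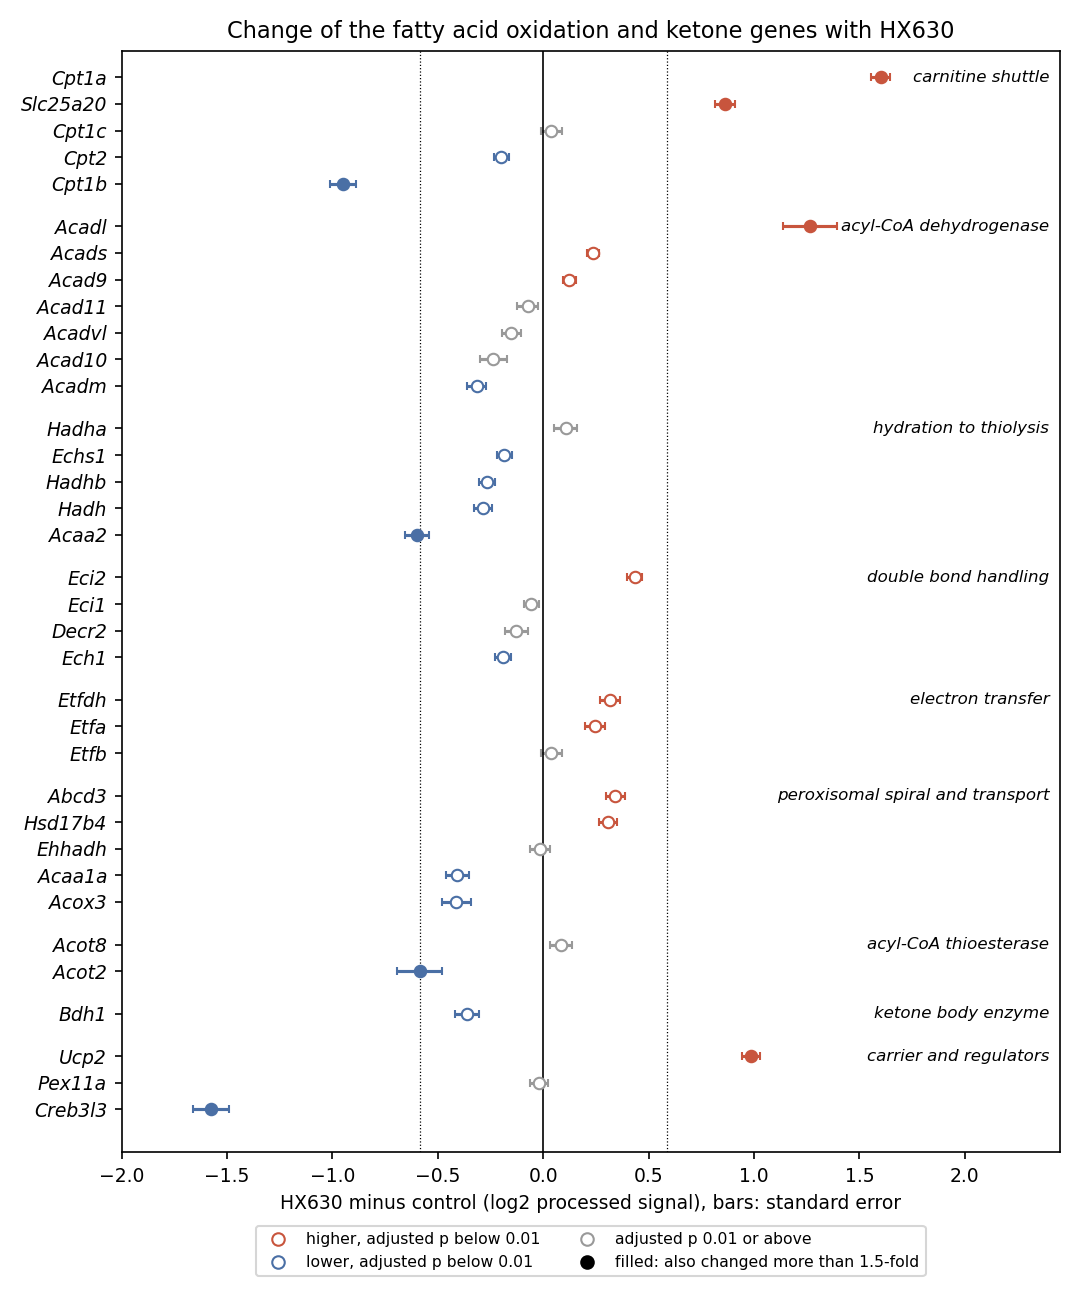
Change of the 35 tested genes (points, HX630 minus control, log2) with the standard error of the limma fit (bars), grouped by role, with dotted lines at a 1.5-fold change. Cpt1a and Slc25a20 lie to the right and Cpt1b to the left within the carnitine shuttle, 4 of the 5 genes of hydration to thiolysis are lower at this scaling, and Creb3l3 is the lowest point. Of the coloured points on the left, Cpt2, Echs1 and Ech1 move to 0.02, 0.04 and 0.03 when the arrays are scaled on the spike-in probes.

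With HX630 the liver form of carnitine palmitoyltransferase I rose and the muscle form fell. The signal of Cpt1a was -0.87, -0.996, -0.84 and -0.88 on the control arrays and 0.70, 0.73, 0.66 and 0.73 on the HX630 arrays. Every HX630 array lay more than 1 log2 unit above every control array, and the groups did not overlap. The change was 1.60 ± 0.044 (SE, n = 4 per group), or 3.03-fold (limma adjusted p = 1.72e-07). The second Cpt1a probe read -4.01, -4.22, -4.28 and -4.09 in controls and -3.25, -3.30, -3.29 and -3.28 with HX630, a change of 0.87 ± 0.061 (limma adjusted p = 1.06e-05). Both probes thus rose by more than 1.5-fold, by 3.03-fold and 1.82-fold.

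The signal of Cpt1b was -2.38, -2.50, -2.59 and -2.42 in controls and -3.40, -3.32, -3.45 and -3.51 with HX630. All HX630 arrays were lower, at 51.8% of control (change -0.95 ± 0.060, limma adjusted p = 6.13e-06). Its second probe fell by 0.75, to 59.3% of control. Cpt1c, the brain form, was measured by 2 probes, and both gave a change of 0.04, with overlapping groups.

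Slc25a20, the translocase that exchanges acylcarnitine for carnitine across the inner membrane, rose. Its signal was -1.93, -2.14, -2.02 and -2.003 in controls and -1.17, -1.16, -1.19 and -1.12 with HX630. The groups lay apart on all arrays, and the HX630 arrays were close to each other (SD 0.028). The change was 0.86 ± 0.048, or 1.82-fold (limma adjusted p = 3.16e-06). Cpt2, the second palmitoyltransferase, which remakes acyl-CoA in the matrix, had a signal of 0.86 ± 0.027 (SD) in controls and 0.66 ± 0.043 with HX630, lower by 0.20 (limma adjusted p = 0.00168), but at 0.02 when scaled on the spike-in probes, and its second probe did not pass the test (-0.18, limma adjusted p = 0.0755).

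**Figure D2:**
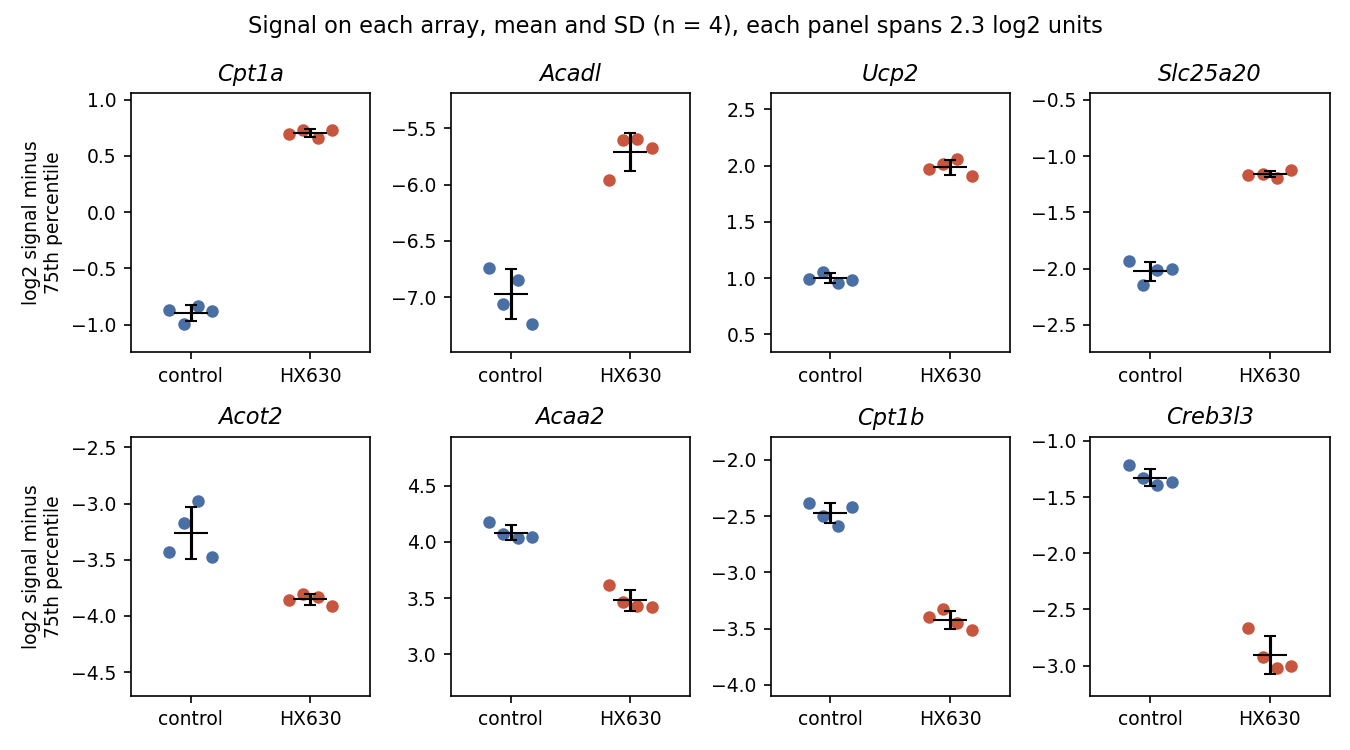
Signal of the 8 genes that changed by more than 1.5-fold on each of the 4 control and 4 HX630 arrays (points), with mean and SD. Each panel spans the same height, and in each the groups do not overlap. Acot2 has the widest control spread and Acadl lies nearest to background, with no control array well above it.

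Among the 7 acyl-CoA dehydrogenases, which take the first step of the mitochondrial spiral by chain length, the long-chain enzyme gene Acadl stood apart. Its signal was -6.74, -7.06, -6.85 and -7.24 in controls and -5.96, -5.61, -5.59 and -5.67 with HX630. The probe was well above background on all 4 HX630 arrays and on 0 control arrays, so that the control level is only bounded and the gene entered the test through its HX630 arrays alone. Against the lowest signal well above background on the control arrays, the processed signal of Acadl was 2.19-fold higher with HX630. The measured means were -6.97 ± 0.22 and -5.71 ± 0.17 (SD), a change of 1.26 ± 0.13 (SE, limma adjusted p = 7.71e-05). This p-value uses control values that were not above background. With normexp background correction the change was 0.64, which is less than 2.19-fold, so that 2.19-fold is a bound for the processed signal only.

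Changes of the other dehydrogenases stayed within 1.5-fold. Acads, the short-chain enzyme, rose from -0.10 ± 0.017 to 0.13 ± 0.026 (SD, n = 4, change 0.24, limma adjusted p = 0.000299). Acad9, which also serves in the assembly of respiratory complex I, rose by 0.12 (limma adjusted p = 0.0081), but did not pass the test in every other setting. Acadm, the medium-chain enzyme, fell from 2.97 ± 0.059 to 2.66 ± 0.055 (change -0.32, limma adjusted p = 0.000533), but did not pass on the spike-in scaling (-0.09). Acadvl, the very-long-chain enzyme, and Acad10 were below all controls on every HX630 array but did not pass the test (-0.15 and -0.24, limma adjusted p = 0.0197 and 0.0131). Acad11, found in both organelles, gave -0.07 with overlapping groups.

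The steps from hydration to thiolysis were lower at this scaling for 4 of 5 genes, and 0 of the 5 rose. Of all genes tested, 27.2% were lower and 24% higher by the same test. Acaa2, a mitochondrial thiolase, had a signal of 4.18, 4.07, 4.04 and 4.05 in controls and 3.62, 3.46, 3.43 and 3.42 with HX630. All HX630 arrays were lower, at 65.9% of control (change -0.60 ± 0.057, limma adjusted p = 5.81e-05), just past the 1.5-fold limit. It fell short of the limit, still passing the test, without control replicate 1 (-0.57), without HX630 replicate 3 or 4 (-0.58 each), and under 4 other scalings and normexp (-0.58 to -0.38). Hadh, the short-chain hydroxyacyl-CoA dehydrogenase, changed by -0.29 (limma adjusted p = 0.000656) and Echs1, the short-chain hydratase, by -0.18 (limma adjusted p = 0.00269).

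Hadha and Hadhb encode the α and β subunits of the trifunctional protein, which runs these steps for long chains. They differed, at 0.11 for Hadha with overlapping groups (limma adjusted p = 0.123) and -0.27 for Hadhb with all HX630 arrays lower (limma adjusted p = 0.000594). The difference between the subunits was not tested. Scaled on the spike-in probes, Acaa2 stayed lower (-0.38), Hadh and Hadhb no longer passed the test (-0.07 and -0.04), Echs1 turned to 0.04, and Hadha passed it as higher (0.33).

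Unsaturated chains need isomerases and a reductase. Eci2, an enoyl-CoA isomerase of both organelles, rose from 1.98 ± 0.038 to 2.42 ± 0.034 (SD, n = 4, change 0.43, 1.35-fold, limma adjusted p = 2.28e-05), and of the genes that stayed within 1.5-fold it had the largest rise. Scaled on the spike-in probes its change was 0.66, and with normexp 0.59, both past 1.5-fold. Ech1, a dienoyl-CoA isomerase, was lower by 0.19 (limma adjusted p = 0.00304), but at 0.03 when scaled on the spike-in probes. Eci1, the mitochondrial isomerase, gave -0.06 and Decr2, the peroxisomal reductase, -0.13, and neither passed the test. Decr1, the mitochondrial reductase, could not be tested, since 1 of its probes was well above background on 1 control and 2 HX630 arrays and the other on none.

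Of the 3 genes of electron transfer, 2 rose and 0 fell, where 24% and 27.2% of all genes tested did. Etfdh, which passes electrons from the flavoprotein to ubiquinone, rose from 1.88 ± 0.074 to 2.20 ± 0.053 (SD, n = 4, change 0.32, limma adjusted p = 0.000802). Etfa, the α subunit of the flavoprotein, rose by 0.25 with its brightest probe and by 0.28 with the other (limma adjusted p = 0.00305 and 0.00124). Etfb, the β subunit, gave 0.04 with overlapping groups. All 4 HX630 arrays were above the controls for Etfdh and Etfa, and both also rose when scaled on the spike-in probes (0.54 and 0.47).

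Among the peroxisomal genes 0 of 7 passed 1.5-fold, where 19.5% of all genes tested did. Abcd3, the PMP70 transporter that brings acyl-CoA into the peroxisome, rose from 2.34 ± 0.063 to 2.69 ± 0.051 (SD, n = 4, change 0.34, limma adjusted p = 0.000345). Hsd17b4, the D-bifunctional protein of the middle steps, rose by 0.31 (limma adjusted p = 0.000526), while Ehhadh, the L-bifunctional protein of the same steps, gave -0.02 with overlapping groups. Acaa1a, a peroxisomal thiolase, fell from 3.53 ± 0.056 to 3.12 ± 0.088 (change -0.41, limma adjusted p = 0.000342). On the spike-in scaling Abcd3 and Hsd17b4 still rose (0.56 and 0.53) and Acaa1a did not pass the test (-0.19). Acaa2 and Acaa1a, a thiolase of each organelle, were thus both lower relative to the 75th percentile. Of other thiolase genes, Acat1 rose by 0.43, Scp2 gave 0.07 with overlapping groups and Acaa1b fell by 0.52.

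Acox3, an acyl-CoA oxidase for branched chains, gave opposite answers from its 2 probes. The brightest read 0.02, -0.14, -0.29 and -0.10 in controls and -0.50, -0.63, -0.50 and -0.52 with HX630, a change of -0.41 ± 0.069 (limma adjusted p = 0.00126). The other read -0.67, -0.71, -0.72 and -0.67 in controls and -0.32, -0.24, -0.21 and -0.19 with HX630, a change of 0.45 ± 0.039 (limma adjusted p = 3.13e-05). Neither set of arrays overlapped between groups, so no direction is given for the gene, and it is counted among the 13 that fell only by the rule of the brightest probe. The mean of both probes changed by 0.02.

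**Figure D3:**
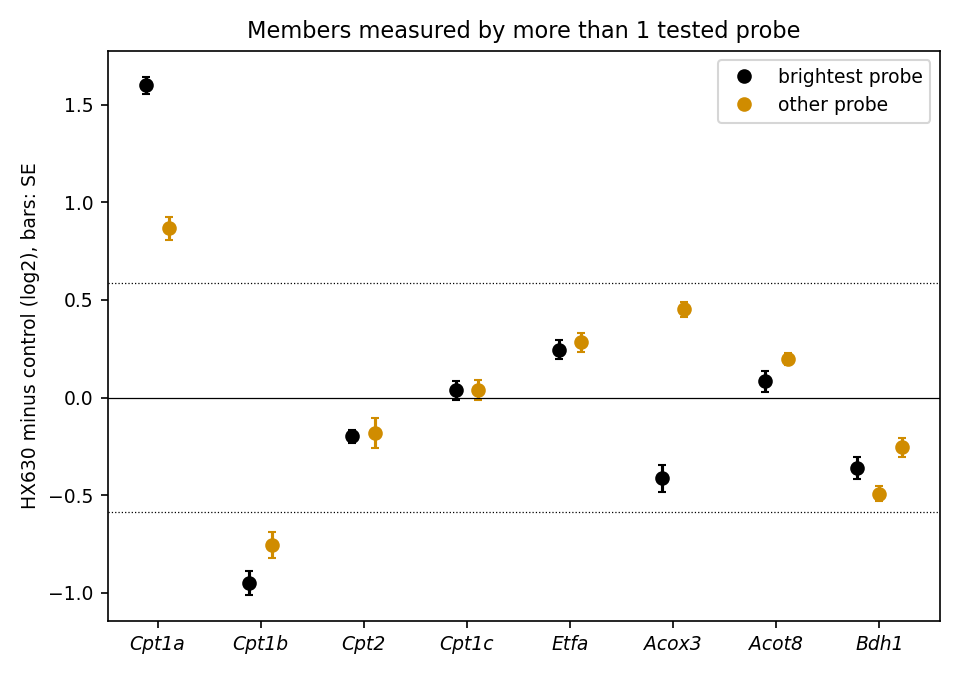
Change of the 8 genes measured by more than 1 tested probe (points, HX630 minus control, log2), with standard errors. The probes of 7 genes have the same sign, and those of Acox3 lie at -0.41 and 0.45.

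Of the 8 genes with more than 1 tested probe (17 probes), 7 had probes of the same sign. Bdh1, the mitochondrial 3-hydroxybutyrate dehydrogenase that makes and uses ketone bodies, was measured by 3 probes, and all 3 passed the test as lower (-0.36, -0.49 and -0.25). Its brightest probe went from 2.77 ± 0.070 to 2.41 ± 0.086 (SD, n = 4, limma adjusted p = 0.000844), while on the spike-in scaling the change was -0.14 and did not pass. Acot8, a peroxisomal thioesterase, did not pass with its brightest probe (1.18, 1.17, 1.08 and 1.12 in controls, 1.27, 1.24, 1.30 and 1.09 with HX630, change 0.08) but did with the other (0.67, 0.72, 0.67 and 0.68 in controls, 0.89, 0.91, 0.86 and 0.86 with HX630, change 0.20, limma adjusted p = 0.001). The groups overlapped on the brightest probe by 1 HX630 array.

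Thioesterases split acyl-CoA back into the free acid and CoA. Acot2, the mitochondrial form, had a signal of -3.43, -3.18, -2.98 and -3.47 in controls and -3.86, -3.80, -3.83 and -3.91 with HX630. All HX630 arrays were lower, at 66.6% of control (change -0.59 ± 0.11, limma adjusted p = 0.00219), with a wider spread among the control arrays (SD 0.23) than among the HX630 arrays (SD 0.046). This change lies at the 1.5-fold limit, and it fell short of the limit without control replicate 2 (-0.56) or 3 (-0.49) and without HX630 replicate 1 (-0.584) or 4 (-0.57). Under 4 other scalings and normexp it was -0.57 to -0.37, also short of the limit, and on the spike-in probes it did not pass the test (limma adjusted p = 0.0213). Acot1, the cytosolic form and a close paralog, was well above background on 0 of 8 arrays and was not tested. Whether the Acot2 probe also binds RNA of related thioesterases was not tested.

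Outside the spiral, Ucp2, an inner membrane carrier of the uncoupling protein family, rose, and Creb3l3, an endoplasmic reticulum transcription factor of lipid metabolism in the liver, fell. The signal of Ucp2 was 1.00, 1.06, 0.95 and 0.99 in controls and 1.97, 2.01, 2.06 and 1.91 with HX630. The groups lay apart by more than the spread of either, with a change of 0.99 ± 0.044, or 1.98-fold (limma adjusted p = 9.84e-07). The signal of Creb3l3 was -1.22, -1.33, -1.39 and -1.37 in controls and -2.67, -2.93, -3.02 and -3.01 with HX630. This was the largest fall of the group, to 33.5% of control (change -1.58 ± 0.085, limma adjusted p = 2.6e-06). Pex11a, which acts in peroxisome division, gave -0.02 with overlapping groups. In the exact permutation test over the 70 regroupings of the 8 arrays (two-sided), any gene whose groups do not overlap gives p = 0.0286, the smallest that 4 against 4 arrays allow.

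Set side by side, the 19 tested genes of mitochondrial oxidation, which do not include Acot2, Bdh1 and Ucp2, had a median change of -0.06, ranged from -0.95 to 1.60, and held 3 that rose and 2 that fell by more than 1.5-fold (26.3%). The 7 peroxisomal genes had a median of -0.02, ranged from -0.41 to 0.34, and held 0 past that limit. At any size, 7 mitochondrial genes rose and 7 fell (73.7%), and 2 peroxisomal genes rose and 2 fell (57.1%), with Acox3 among the latter by its brightest probe only. Over all genes tested, the share was 19.5% past 1.5-fold and 51.2% at any size. The median size of a change, without its sign, was 0.25 for the mitochondrial and 0.31 for the peroxisomal genes. The latter takes Acox3 at -0.41, by its brightest probe, while the mean of both its probes changed by 0.02. Without the carnitine shuttle, which has no peroxisomal counterpart here, 15 mitochondrial genes were left, of which 1 rose (Acadl) and 1 fell (Acaa2) by more than 1.5-fold. Acadl entered the test through its HX630 arrays alone, so that its count as a riser rests on an undetected control level. The difference between the organelles was not tested. Of the 3 genes shared by both organelles, Eci2 rose, Ech1 was lower and Acad11 did not pass, with Ech1 at 0.03 on the spike-in scaling.

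**Figure D4:**
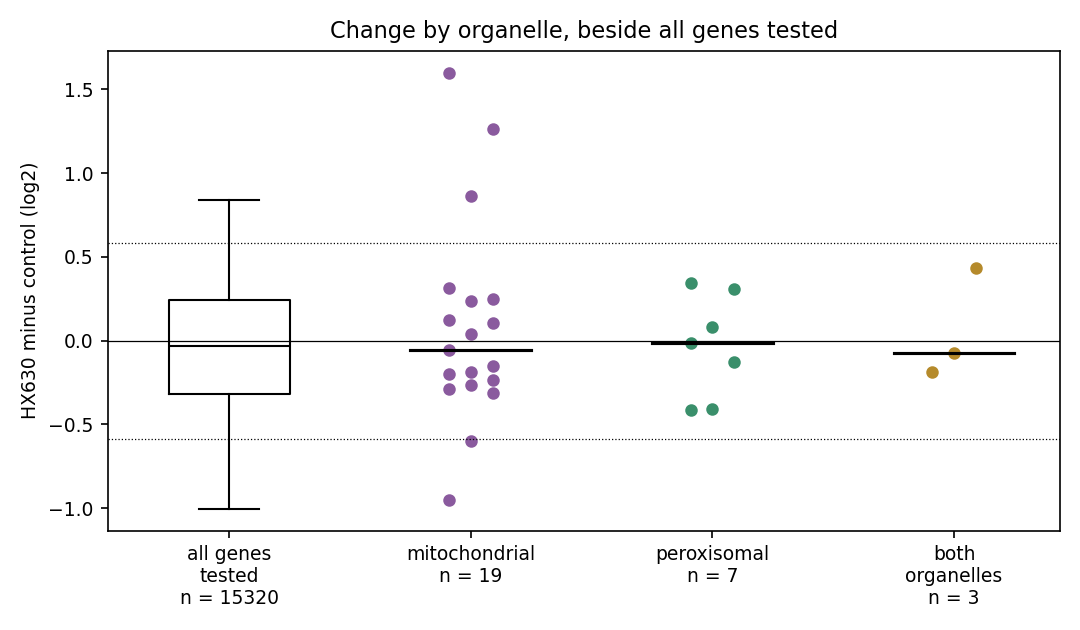
Change (HX630 minus control, log2) of the 19 mitochondrial, 7 peroxisomal and 3 shared genes (points, line at the median), beside all 15320 genes tested (box with quartiles and median, whiskers at the 5th and 95th percentiles), with dotted lines at 1.5-fold. The medians lie near 0 in each column, and 5 mitochondrial and 0 peroxisomal points lie past the dotted lines.

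Further genes of the pathway were read from 6 lists. The largest changes were among 24 regulators of oxidation, of which 22 were tested, 3 rose and 5 fell by more than 1.5-fold, where 8.38% and 11.2% of all genes did. Ppargc1a, the coactivator PGC-1α of mitochondrial genes, had a signal of 0.87, 0.62, 0.86 and 0.81 in controls and -3.48, -4.40, -4.31 and -4.40 with HX630. It was 30.7-fold lower (change -4.94 ± 0.21, limma adjusted p = 7.74e-07), and above background on all 8 arrays. Esrrb, an estrogen-related receptor, fell by 2.41 and Ppargc1b, the related coactivator, by 2.02.

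The other regulators past 1.5-fold are named because they are few, after their values were seen. Esrra fell by 0.99 and Ppard, a PPAR, by 0.78, while Ucp3, an uncoupling protein, rose by 1.10, Plin5, a lipid droplet protein, by 0.61, and Prkaa2, a catalytic subunit of AMP-activated kinase, by 0.59. Of the RXR genes themselves, Rxra gave 0.10 and Rxrg -0.19, and neither passed the test, while Rxrb was lower by 0.33 (limma). Ppara gave -0.37 and Pparg -0.32 without passing it. By real-time PCR the study detected no RXRγ mRNA in these cells, and found that of RXRα and β unaffected by HX630 at this dose. Here the Rxrg probe was above background on all 8 arrays (mean 0.36 in controls, with Rxra at -3.93). The reason for these differences was not tested.

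Of 8 other ketone body genes, all tested, 1 rose and 3 fell by more than 1.5-fold, beside the same 8.38% and 11.2%, and 3 rose and 3 fell at any size. Bdh2, a cytosolic dehydrogenase, fell by 1.87, Slc16a1, the monocarboxylate carrier MCT1, by 0.93, and Oxct1, the CoA transferase that starts ketone body use, by 0.71, from 4.60 ± 0.074 to 3.90 ± 0.071 (SD, n = 4). Oxct2a, a related transferase of the testis, rose by 0.67, Slc16a7, the carrier MCT2, by 0.54, and Acat1, the mitochondrial acetoacetyl-CoA thiolase, by 0.43.

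Among 17 tested genes of fatty acid activation and uptake, 0 changed by more than 1.5-fold, 7 rose and 1 fell at any size, and the median change was 0.10. The risers included Acsl1, Acsl4, Acsl5 and Acsl6, ligases that make acyl-CoA (0.35, 0.47, 0.26 and 0.32), and Fabp5, a fatty acid binding protein (0.54). Of 15 peroxisome biogenesis genes, 7 rose and 2 fell, with a median of 0.10, and Pex7, the receptor for a class of imported peroxisomal proteins, rose by 0.79. Of 19 tested genes of other peroxisomal oxidation, 1 rose and 5 fell, led by Acot4, a thioesterase (-0.93), and Pecr, an enoyl-CoA reductase (-0.69). Of 17 other mitochondrial acyl-CoA genes, 1 rose and 8 fell, led by Auh, a hydratase of leucine breakdown (-1.03), and Acot9, a thioesterase (-0.59), with a median of -0.17. These counts stand beside the 24% and 27.2% of all genes that rose and fell, and they were not recomputed at other scalings. Scaling on the spike-in probes moves every change up by 0.22, so that the smaller falls and the median of -0.17 depend on the scaling.

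**Figure D5:**
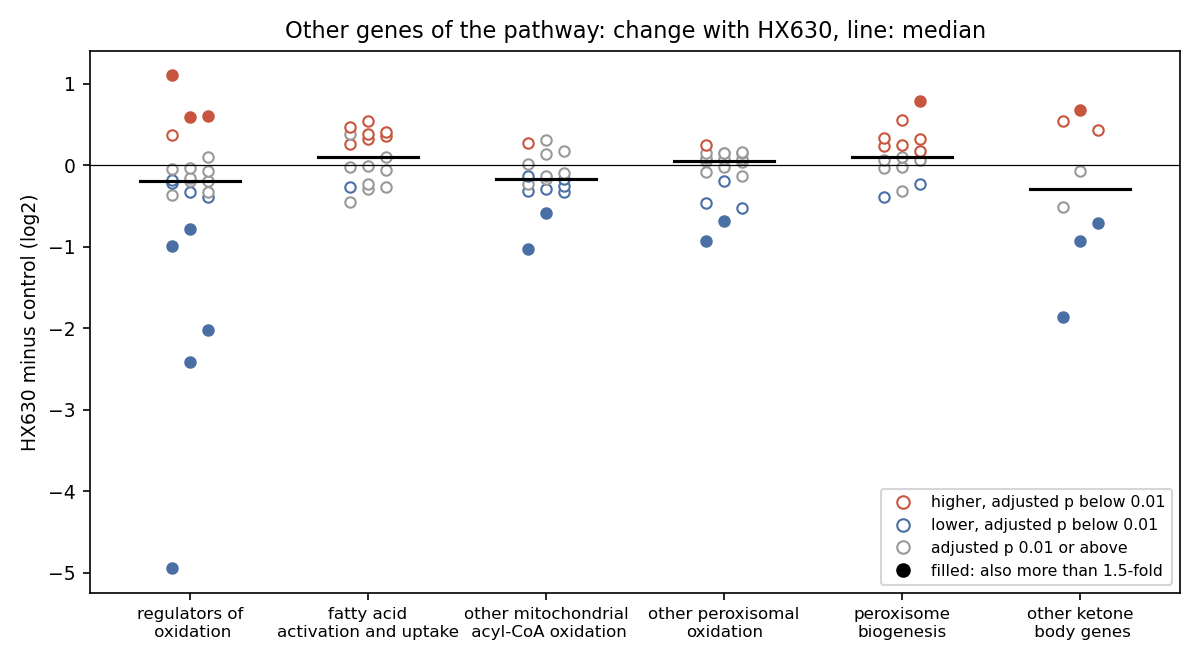
Change (HX630 minus control, log2) of the tested genes of 6 further lists (points, line at the median of each list), with filled points past 1.5-fold. Ppargc1a lies at -4.94, far below the others, and the activation and uptake list has 0 filled points.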

How the data were processed

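Gene expression was measured on 8 single-color Agilent mouse arrays. The authors deposited the output of Agilent Feature Extraction 10.7.3.1, which gives each spot a processed intensity (background subtracted, spatial trends removed), and also a log2 table of these arrays, whose column medians were -3.67, -3.81, -3.80 and -3.82 (control) and -3.80, -3.85, -3.89 and -3.91 (HX630). Set against the arrays, its values were log2 processed intensity less, in the median over probes, the 75th percentile of each array, which gives its scale, centring and direction. This offset ranged over 0.485 to 1.03 between probes of an array, and the handling of single probes stays unknown.

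The analysis used R 4.3.3 and limma 3.58.1. Control spots and outlier spots were left out, spots of a probe were averaged, and the 75th percentile of each array was subtracted on the log2 scale. Of 39429 probes, 26055 (66.1%) were named through RefSeq accessions, for names only, since the array design uses another build. The 28553 probes that were well above background on 4 or more arrays were tested with lmFit and eBayes, 4 against 4 arrays, with Benjamini-Hochberg adjustment over all of them. A change passed the test at an adjusted p below 0.01, and the study's limit of 1.5-fold was added as a second criterion. A gene was represented by its brightest tested probe. The code was tested on simulated data. The number of arrays limits the precision.

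The genes and lists were chosen with earlier results of these data known. All genes of the group were named, and from each further list up to 3 genes past both criteria with the largest change. Further genes of these lists were named after their values were seen. Alternatives were other scalings, normexp background correction (offset 16, on median spot and background intensities), the deposited log2 values, other filters, outlier spots kept, the methods' t-test, the mean of a gene's probes, a block for the replicate number, and leaving out single arrays. Real-time PCR, reporter, chromatin and animal experiments were not analysed here.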

Additional observations from a re-analysis of the deposited data

Results flagged for a closer look

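One array was far from the others of its group. On the brightest probe of Acox3, HX630 replicate 2 read -0.63, while the other 3 HX630 arrays had a mean of -0.51, and the gap to the nearest array was 0.833 of the range of the 4 arrays, just past the 95% limit of Dixon's test for 4 arrays. The 35 tested genes gave 70 groups of 4 arrays, of which 1 stood out in this way, where chance gives 3.5.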

How the results depend on the processing

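Over all settings, 734 values of single genes were recomputed, and 693 kept their direction and their joint standing on both criteria, 22 changed direction, 17 no longer met both criteria and 2 newly did. A gene within 1.5-fold could thus lose the adjusted p alone without being counted. The losses were those of Acaa2 and Acot2, which lie next to the 1.5-fold limit, and the gains those of Eci2. The number that rose by more than 1.5-fold was 3 to 5 in all settings, and 4 whichever array was left out. The number that fell by more than 1.5-fold was 2 in place of 4 with scaling on the array median, on the 75th percentile of probes detected on all arrays, by quantiles or on spike-in probes, and with normexp, and 2 to 4 with 1 array left out (2 without HX630 replicate 4). On the spike-in scaling 3 fell at any size in place of 13, and on the array median 9, without Cpt2, Hadh, Echs1 and Ech1.

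The median change of the mitochondrial genes was 0.030 with scaling on the array median, -0.010 with quantiles, 0.16 on spike-in probes, 0.00078 with normexp and -0.10 with only probes above background on all 8 arrays, and -0.072 to -0.038 with 1 array left out. That of the peroxisomal genes was 0.072, 0.21 and 0.10 with the array median, spike-in probes and normexp, and -0.038 to 0.017 with 1 array left out. Scalings by a constant per array keep the distance of these medians to that of all genes, by construction.

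Changes of direction were those of Ehhadh (0.072 with the array median, 0.0028 with the detected probes, 0.017 with quantiles, 0.21 on spike-in probes, 0.14 with normexp, 0.017 without control replicate 1 and 0.0074 without HX630 replicate 3) and Pex11a (0.068, 0.20 and 0.012 with the array median, spike-in probes and normexp, -0.034 to 0.0060 with 1 array left out). On spike-in probes they were also those of Acad11 (0.15), Eci1 (0.16), Cpt2 (0.022), Acadvl (0.070), Echs1 (0.037), Ech1 (0.031) and Decr2 (0.093). With the array median Acad11 gave 0.014 and Eci1 0.030, with normexp Echs1 gave 0.00078, and with the mean of both probes Acox3 gave 0.020.

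With the replicate number as a block, 4 genes rose and 4 fell by more than 1.5-fold, and 10 and 12 at any size. Whether the numbers pair the samples is not settled by these values. The correlations of same-numbered arrays were 0.52, -0.0093, 0.24 and 0.38, and 2 of 4 correlated best with their own number. Slide could not be fitted as a block, because each slide held 1 group. A probe near background, as that of Acadl, has only a bound on its change, and this bound depends on the background correction.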
